A study of Populus davidiana with 6 samples.

Results

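Among the 40537 genes listed for aspen leaves, 64 well-expressed genes had at least 2 times as much transcript after about 10 minutes in open air, in every pairing of an air-dried with a control library. They were chosen from the measured values themselves: each gene's level in a library was the sum of the FPKM of its transcripts, and a gene was kept if it spanned at least 300 bp, had a control mean of at least 10 FPKM, and had a lowest air-dried value at least 2 times its highest control value. FPKM is the number of sequenced fragments per kilobase of transcript, scaled to the size of the library, and it was deposited per transcript. Of all listed genes 12225 met the conditions on span and control mean, called eligible genes here, so the 64 doubled genes were 0.524% of them. The same rule turned around, with the lowest control value at least 2 times the highest air-dried value, was met by 119 eligible genes, or 0.973%. Because the control and air-dried values chose the genes, that contrast is described here without a test. A looser rule on means alone was met by more genes: 140 eligible genes had an air-dried mean at least 2 times the control mean, of which 76 failed the stricter rule on single libraries.

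The leaves came from seedlings of Populus davidiana, an aspen, of the single cultivar Seogwang9, which is labelled drought tolerant. All plants were raised by internode culture on a sugar-containing gelled medium with naphthalene acetic acid, a synthetic auxin, and were used when some 6 weeks old. In the 3 air-dried samples the plants had been pulled from the medium, rinsed with sterile water and left in open air. The 3 control samples are called controls in their titles, and no label says if those plants were handled in the same way apart from the drying. No label says whether the 3 samples of each group were taken from different plants either, so p-values cover only the scatter among these 6 samples, and that may be technical scatter.

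Leaves that lose water are known to close their stomata, to accumulate the hormone abscisic acid and to switch on genes for transcription factors, protein phosphatases and protective proteins such as dehydrins. The transcripts of such genes are often present at low or moderate levels in watered leaves and accumulate quickly when water is lost. The deposited gene name field was empty and no table used here pairs the accessions with names, so which of the 64 genes belong to these families is not known here, and the leaf label was not checked against marker genes. Genes are therefore given by their position, with accessions for the leading one of each ranking. The build of the genome is not stated in any source used here, and positions are printed as deposited. In bulk leaf RNA, more cells of a type and more RNA per cell cannot be told apart.

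The libraries had depths of 0.893 to 1.327 relative to control 1, judged from the steps between low values; absolute depth is unknown. Median levels of the eligible genes lay between 24.7 and 25.7 FPKM in the 6 libraries. The doubled genes started close to these levels, with medians of 24.1, 23.8 and 25.2 FPKM in controls 1, 2 and 3, and had medians of 106.2, 108.1 and 106.2 FPKM in air-dried 1, 2 and 3. Together they held 0.310%, 0.317% and 0.364% of the summed FPKM of the eligible genes in the controls. In the air-dried libraries they held 0.939%, 1.05% and 1.22%. In summed FPKM the doubled genes had 9393, 9446 and 10108 in air-dried 1, 2 and 3. A single long locus on chromosome 9, described below, supplied the excess of air-dried 3 in this sum. Without it the summed level of the doubled genes was 9158, 9232 and 9102 FPKM in the air-dried libraries. In the controls it was 3016, 2923 and 2944 FPKM. The shares also depend on the summed FPKM of the eligible genes, and they were not computed without this locus.

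**Figure D1:**
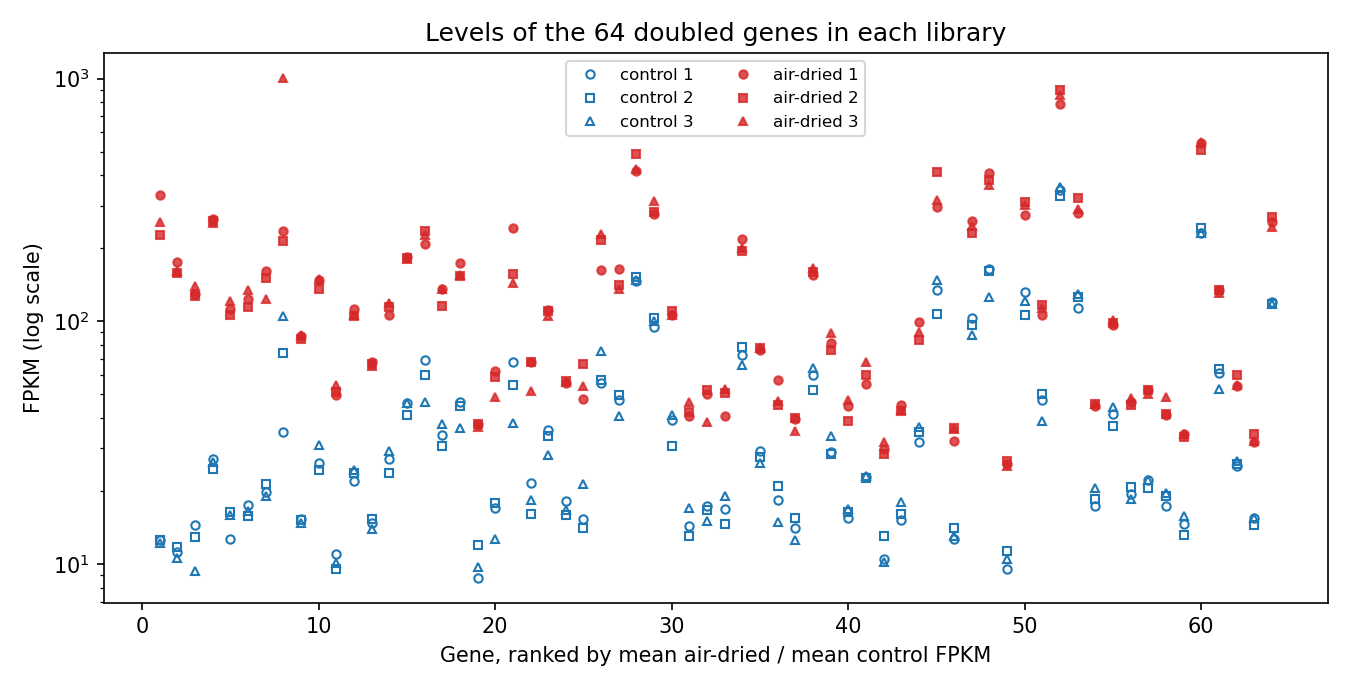
FPKM (log axis) of each of the 64 doubled genes in the 3 control libraries (open blue symbols) and the 3 air-dried libraries (filled red symbols), 1 column of points per gene, ordered by the ratio of group means from 21.9 at rank 1 to 2.16 at rank 64. Within most genes the replicates lie close together, and the gene at rank 8 has 1 air-dried value far above the other treated values.

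Most of the differences were between 2 and 3 times. The ratio of the air-dried to the control mean had a median of 2.86 and ran from 2.16 to 21.9. It was under 3 in 37 genes, from 3 to under 5 in 16, and at least 5 in 11. On the log2(FPKM + 1) scale, which understates differences of low values, the median difference was 1.47, beside 0.00853 over the eligible genes and 0.00801 over the 22356 genes tested, those averaging 1 FPKM or more. In limma with Benjamini-Hochberg adjustment over those 22356 genes, 63 of the 64 passed an adjusted p of 0.05 as higher, beside a background of 5.60% of all genes tested. The rule used this contrast, so nothing is read from that count.

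The largest ratios belonged to genes that were modest in the controls. First came POPTR_0007s01110, which has 1 known transcript and lies on chromosome 7 (602330 to 603357, minus strand). Its level was 12.5, 12.5 and 12.2 FPKM in controls 1, 2 and 3 and 333, 227 and 256 FPKM in air-dried 1, 2 and 3. The controls were nearly equal, and air-dried 1 was the highest of the treated libraries. The means were 12.4 ± 0.180 and 272 ± 54.5 FPKM (SD, n = 3 each), a ratio of 21.9 and a log2 difference of 4.33 (SE 0.144). Among the eligible genes it stood at place 10713 by control mean and at place 441 by air-dried mean.

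A 796 bp gene on the plus strand of chromosome 1 (42026076 to 42026871) came second. It had 11.2, 11.8 and 10.6 FPKM in the controls and 176, 158 and 161 FPKM in the air-dried libraries. Replicates were close in both groups, and the log2 difference was 3.77 (SE 0.0766), a ratio of 14.7. The gene on the plus strand of chromosome 3 (14941797 to 14943066) had 27.2, 24.6 and 26.3 FPKM against 263.5, 260.2 and 253.6 FPKM. This was among the steadiest of the large differences, with an SD of 5.06 around the air-dried mean of 259 FPKM, a ratio of 9.94 and a log2 difference of 3.27 (SE 0.0702).

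Below these lay genes with ratios from 5.33 to 7.57. On chromosome 11 (14105995 to 14108366, plus strand) the values were 12.7, 16.4 and 15.9 FPKM in the controls and 112, 106 and 121 FPKM after drying, a ratio of 7.57. On chromosome 8 (4193238 to 4196483, plus strand) they were 17.5, 15.7 and 16.6 FPKM against 124, 114.5 and 135 FPKM, a ratio of 7.49. In both genes the rule already sets the treated libraries apart from the controls. An 888 bp gene on chromosome 1 (16968451 to 16969338, minus strand) had 19.9, 21.5 and 19.1 FPKM against 161, 151 and 124 FPKM, a ratio of 7.21. Air-dried 3 was the lowest treated library here. The gene at 41083163 to 41084674 on the plus strand of chromosome 1 had 15.4, 15.1 and 14.8 FPKM against 87.3, 84.7 and 88.2 FPKM, a ratio of 5.74. Both groups were tight, with SDs of 0.286 and 1.83 FPKM around means of 15.1 and 86.8 FPKM. On chromosome 10 (3331846 to 3333965, plus strand) the controls had 26.1, 24.4 and 30.9 FPKM and the air-dried libraries 148, 136 and 150.1 FPKM, a ratio of 5.33. The other 2 of the top 10, long loci on chromosomes 13 and 9, are described with the overlapping genes.

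**Figure D2:**
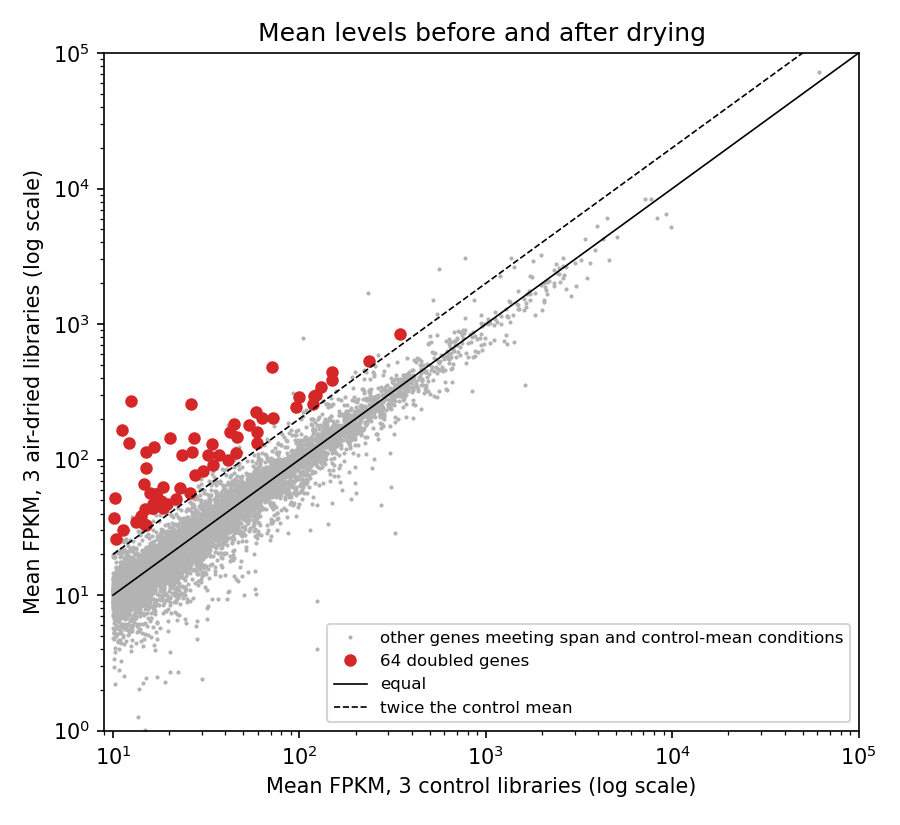
Mean FPKM of the 3 air-dried libraries against mean FPKM of the 3 control libraries, both on log axes, for the 64 doubled genes (red) and the other eligible genes (grey); 9 genes with an air-dried mean under 1 FPKM lie outside the plot. The doubled genes lie above the dashed line of 2 times the control mean, with control means from 10.2 to 345 FPKM and the largest ratios at the low end.

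At the other end stood genes that were already abundant. The most abundant, POPTR_0002s07290, has 1 known transcript and lies on chromosome 2 (4980219 to 4983849, minus strand). It had 348, 328 and 359 FPKM in the controls and 785, 898 and 860.0 FPKM after drying. The gene had SDs of 16.0 and 57.8 FPKM (n = 3 each), with a ratio of 2.46 and a log2 difference of 1.29 (SE 0.104). It moved from place 322 to place 103 among the eligible genes. The next, also on chromosome 2 (997286 to 1003043, minus strand), had 232, 241 and 232 FPKM against 544, 508 and 549.7 FPKM, a ratio of 2.27. Its 3 controls and its 3 treated libraries were each within a narrow range.

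The remaining genes of the 10 highest control means had ratios from 2.16 to 2.97. The gene on chromosome 14 (12927717 to 12930120, minus strand), for which 5 known transcripts are listed, had 146, 152 and 149 FPKM in the controls and 417, 489 and 423 FPKM after drying. With a log2 difference of 1.56 (SE 0.0951) it had the largest ratio of these 10. A gene on chromosome 10 (10551687 to 10554183, plus strand) had 164, 161 and 126 FPKM against 407, 381 and 364 FPKM, with control 3 the lowest. One on chromosome 3 (16600753 to 16602104, minus strand) had 113, 125 and 129 FPKM against 279, 322 and 290.5 FPKM. One on chromosome 6 (7823701 to 7825980, minus strand) had 133, 106 and 121 FPKM against 275, 310.2 and 300.3 FPKM. In these 3 genes the ratios were close, at 2.55, 2.43 and 2.46. The gene on chromosome 4 (1268348 to 1269781, minus strand) had 119.7, 117 and 118 FPKM against 256, 268 and 244 FPKM, with the smallest ratio of the 64 at 2.16. On chromosome 8 (11689665 to 11692484, plus strand) the values were 95.0, 103 and 100.2 FPKM against 278, 282 and 312 FPKM. On chromosome 14 (8328356 to 8330354, minus strand) they were 103.5, 96.3 and 87.5 FPKM against 258, 232 and 246 FPKM. The ratios of this pair were 2.93 and 2.56, and the tenth gene of the ranking is given with the threshold.

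Large ratios were found at low control levels. The 28 doubled genes with a control mean of 10 to under 20 FPKM had ratios up to 21.9, and the 19 from 20 to under 50 FPKM had ratios up to 9.94. The 9 genes from 50 to under 100 FPKM reached 6.80, at the long chromosome 9 locus, and the 8 with 100 FPKM or more reached 2.97. The medians of these classes were closer, at 2.89, 3.19, 2.93 and 2.46. The share of eligible genes that met the rule was 0.593%, 0.428%, 0.558% and 0.551% in the same order. Ratios were a description of genes picked by ratio, so these figures were not tested.

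The rule cut through a continuous range. Just inside it lay a gene on chromosome 1 (32560535 to 32562146, plus strand), also among the 10 most abundant, with 135, 107 and 148 FPKM in the controls and 297, 412 and 317 FPKM after drying. Its lowest air-dried value was 2.00 times its highest control. The gene on chromosome 6 at 11449037 to 11450511 (plus strand) had 25.4, 25.8 and 26.7 FPKM against 54.2, 60.2 and 54.6 FPKM, where this ratio was 2.03. Just outside lay a gene on chromosome 5 (11467753 to 11468632, plus strand) with 46.9, 40.3 and 46.8 FPKM against 105, 98.8 and 93.5 FPKM. Its ratio was 1.995, and its values looked no different in kind from those inside. A locus on scaffold 46 (59146 to 99526, plus strand) had 113, 86.9 and 77.8 FPKM against 226, 314 and 392 FPKM, a ratio of 1.99. A gene on chromosome 2 (12617632 to 12622866, plus strand) had 16.4, 16.0 and 16.6 FPKM against 32.8, 34.1 and 38.3 FPKM, a ratio of 1.98. There were 8 doubled genes with a ratio from 2 to under 2.1 and 9 eligible genes with one from 1.9 to under 2.

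Replicates of the doubled genes lay close together. The highest air-dried value was a median of 1.12 times the lowest, and it was over 1.5 times in 2 of the 64 genes. Among controls the median was 1.19, with 4 genes over 1.5. Over the eligible genes the medians were 1.19 and 1.17. The rule favours genes with little spread, so the comparison with the eligible genes was not tested. Air-dried 1, 2 and 3 held the highest treated value in 21, 20 and 23 doubled genes, beside 33.8%, 23% and 43.2% of the eligible genes. Controls 1, 2 and 3 held the highest control value in 21, 19 and 24, beside 24.7%, 33.3% and 42.05%. These counts were not tested.

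An earlier look at these libraries had split them, from the data and not from any label, into a set A of controls 1 and 2 and air-dried 1, and a set B of the remaining libraries, control 3 and air-dried 2 and 3. The rule already makes every air-dried library exceed every control in these genes, so a difference inside both sets was fixed by the choice of genes and its sizes are a description. Set A gave a median log2 difference of 1.501 and a lowest one of 1.04, and set B 1.54 and 1.05. In 56 genes both estimates lay within 0.25 of each other, and in 2 genes they were over 0.5 apart. Each set has a single library in 1 group, and the fit takes that library's scatter to be that of the rest.

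**Figure D3:**
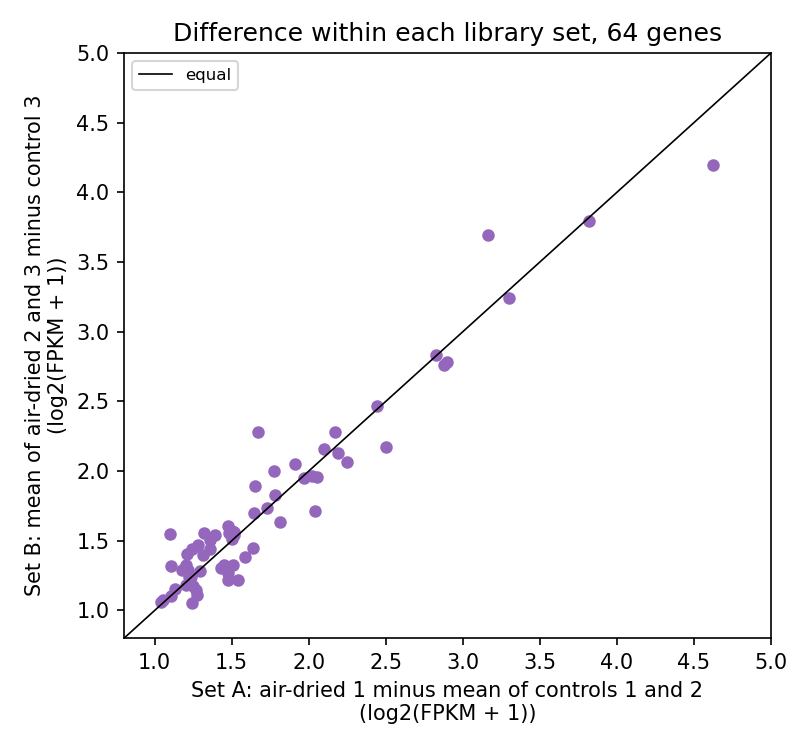
Log2(FPKM + 1) difference between air-dried and control libraries within set A (x axis) and within set B (y axis) for the 64 doubled genes, 1 point per gene, with a line of equality. The points follow the line from 1.04 to 4.62 on the x axis, and the farthest above it are 2 long loci on chromosomes 16 and 13.

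Whether the difference itself depended on the set was tested with an interaction term in limma across all 22356 genes. None of the 64 genes passed an adjusted p of 0.05, beside 0.188% of all genes. At an unadjusted p under 0.05 there were 3 of the 64 (4.69%), beside 1.91% of the eligible genes. The long locus on chromosome 16 (2687355 to 2786595) had the largest interaction, 0.613 (SE 0.193), from a difference of 1.67 in set A and one of 2.28 in set B. The top-ranked chromosome 7 gene had the lowest, -0.43 (SE 0.174), with 4.62 and 4.195. The median SE of the interaction was 0.179, and even the largest interaction, over 3 times its own SE, had a limma adjusted p of 1, so differences in response of that size were not called in these genes.

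The level of the genes was also compared between the sets, with treatment as a term. No doubled gene passed a limma adjusted p of 0.05, beside 0.989% of all genes tested and 1.20% of the eligible genes, shares at which less than 1 call would be counted among 64. The rule favours genes with little spread inside groups, which also limits this difference in the doubled genes. The sets were themselves drawn from these libraries, so nothing is read from that count. The 221 calls behind the share over all genes were 121 without control 1, 91 without control 2 and 60 without control 3. They were 79 without air-dried 1, 154 without air-dried 2 and 53 without air-dried 3. Rescaled libraries gave 95 or 102, no filter on low levels gave 23, and a filter at a mean of at least 5 FPKM gave 264. At an unadjusted p under 0.05 there were 9 (14.1%), beside 16.9% of the eligible genes. The lowest set difference belonged to a 739 bp gene on chromosome 2 (9221044 to 9221782, plus strand), which had 68.0, 54.6 and 38.1 FPKM in the controls and 242, 156 and 144 FPKM after drying. Control 3 was the lowest control and air-dried 1 far above the other treated libraries, a set difference (B minus A) of -0.68 (SE 0.107, limma adjusted p = 0.07602). Genes on chromosome 12 (10287120 to 10288962, plus strand) and chromosome 11 (14416308 to 14417822, plus strand) followed with -0.34 and -0.32. Their controls were 18.4, 20.9 and 14.9 FPKM and 17.1, 17.9 and 12.7 FPKM, and their treated values 57.4, 45.3 and 46.9 FPKM and 62.2, 59.1 and 48.9 FPKM. In both genes control 3 was the lowest control. Air-dried 1 was the highest treated library, with air-dried 2 close behind it in the chromosome 11 gene.

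The opposite pattern was found on chromosome 15 (11334262 to 11335715, minus strand), with 55.8, 57.4 and 75.8 FPKM in the controls and 163.5, 216 and 229 FPKM after drying. Its set difference was 0.428 (SE 0.0675, limma adjusted p = 0.07444), the smallest adjusted p among the 64. On chromosome 6 (4232194 to 4233710, plus strand) the values were 15.3, 14.1 and 21.4 FPKM against 47.9, 66.5 and 54.1 FPKM, a set difference of 0.413 (SE 0.111). In these genes the libraries of set B were the higher ones in both groups, while the rule keeps treated and control values apart. The highest set difference, 1.01 (SE 0.654), belonged to the long chromosome 9 locus.

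By their medians the doubled genes were shorter and simpler in annotation than other well-expressed genes, features that the rule did not use beyond the 300 bp minimum. They covered a median of 1986 bp of genome, beside 3922 bp for the eligible genes and 2583 bp for the 119 genes that met the reverse rule. A span of 1000 to under 2000 bp was found in 29 (45.3%), beside 11.9% of the eligible genes, and a span of at least 4000 bp in 9 (14.1%), beside 48.7%. A single transcript was listed for 34 (53.1%), beside 16.3% of the eligible genes and 43.7% of the genes that met the reverse rule. Put the other way, 1.71% of the 1994 eligible genes with 1 transcript met the rule and 0.293% of the 10231 with several. Both features go together: eligible genes with 1 transcript spanned a median of 1767 bp and those with several 4354 bp. Among the doubled genes the medians were 1789 and 2277 bp. These shares were described and not tested.

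**Figure D4:**
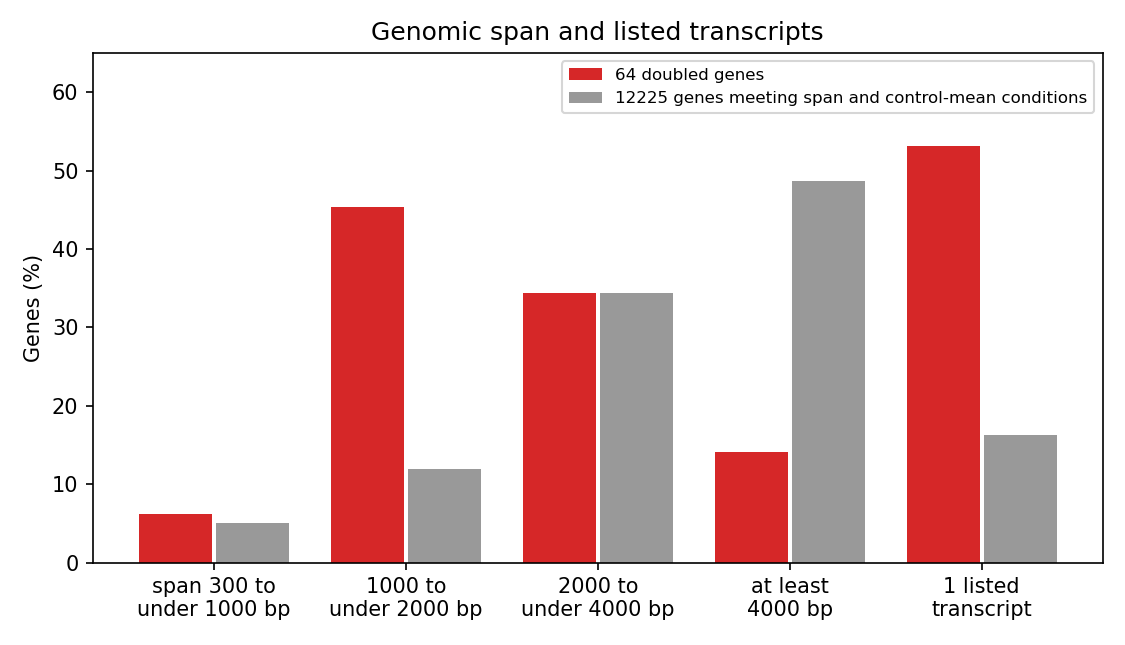
Percentage of the 64 doubled genes (red) and of the 12225 eligible genes (grey) in each class of genomic span and with a single listed transcript. The doubled genes are concentrated at 1000 to under 2000 bp (45.3% against 11.9%) and are fewer at 4000 bp and above (14.1% against 48.7%).

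In the 30 doubled genes with more than 1 listed transcript, the leading transcript was one marked known in 21 and one assembled from the reads in 9. It was the same transcript in all 6 libraries in 25 genes. Its share of the gene's FPKM stayed at 99% or more in 8 of them. The other 22 were tested for a shift of the leading transcript's share with limma across 15473 genes with several transcripts, on the log2 ratio of its share to that of the rest. None of the 22 passed an adjusted p of 0.05, and neither did any of the 15473 genes (0%). At an unadjusted p under 0.05 there were 2 of 22 (9.09%), beside 3.70% of all. Between the library sets 1 of the 22 passed, beside 1.63% of all. This was the gene on chromosome 8 at 1320514 to 1324031 (plus strand), whose leading transcript held 99.2%, 99.2% and 78.3% in the controls and 99.2%, 77.6% and 79.2% after drying, low in the libraries of set B (limma adjusted p = 0.003528). The share had a median of 80.3% in the controls and 80.9% after drying, and it differed by under 10 percentage points in 17 of the 22. How fragments were divided among overlapping transcripts is an estimate of the authors' software, so a share is less firm than a gene's sum.

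Of the 94 transcripts listed for these 30 genes, 59 had a mean of at least 1 FPKM. For 59 of these 59 the air-dried mean was the higher, beside 50.9% of such transcripts over all eligible genes with several transcripts. In 46 each air-dried value was above each control value, beside 8.62%. Among the 29 that were not the leading one this held in 16, beside 6.20% of non-leading transcripts. These transcripts are parts of the sums that chose the genes, so nothing is read from these shares.

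**Figure D5:**
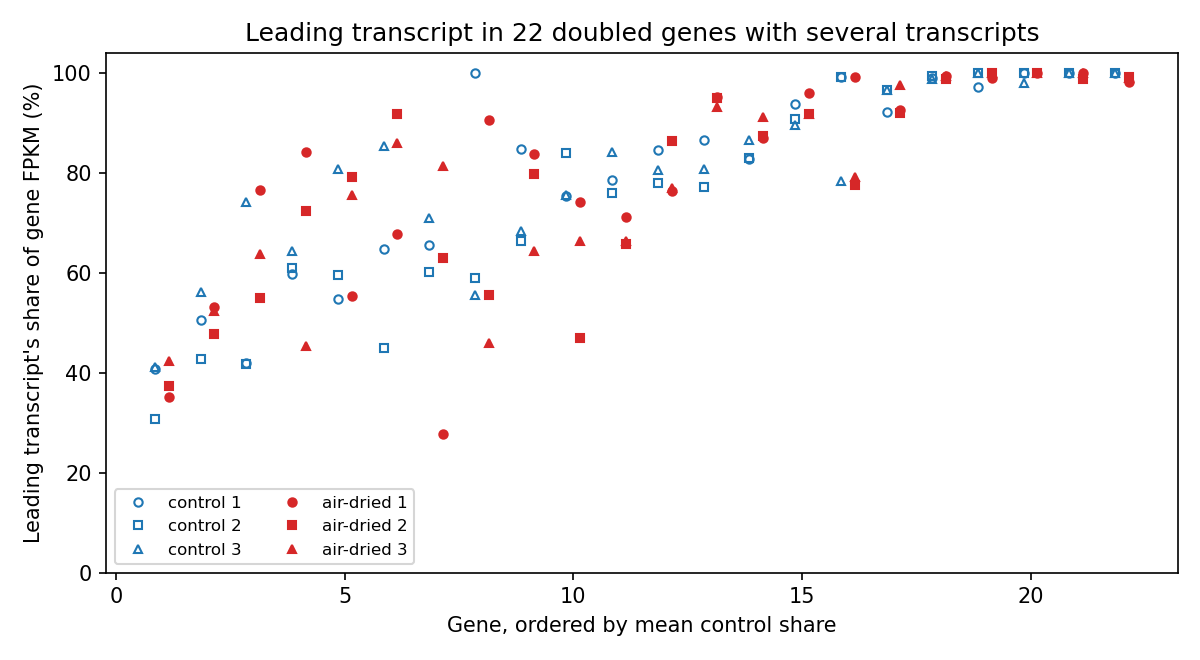
Share of a gene's FPKM held by its leading transcript (%, y axis) in each control (open blue) and air-dried (filled red) library, for the 22 doubled genes whose share was below 99% in at least 1 library. Groups overlap in most genes, and single libraries scatter widely in several, as in the long chromosome 16 locus where air-dried 1 lies at 27.7%.

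The transcripts of a gene did not always differ to the same degree, as in a pair of genes singled out after their values were seen. On chromosome 4 (16139178 to 16146934, minus strand) the gene had 21.5, 16.0 and 18.4 FPKM in the controls and 67.9, 68.2 and 51.5 FPKM after drying. Its known transcript, which spans the whole 7757 bp, had a mean of 3.36 FPKM in the controls and 3.40 FPKM after drying. An assembled transcript that ends at 16141131 had 18.6, 12.4 and 14.9 FPKM against 64.6, 64.8 and 48.0 FPKM. Its share went from 81.5% to 94.5%, which did not pass (limma adjusted p = 0.6229). On chromosome 5 (25375702 to 25377714, minus strand) the leading known transcript held 79.6% of 41.1 FPKM in the controls and 67.8% of 98.6 FPKM after drying. That transcript, which spans the whole gene, had means of 32.8 and 66.8 FPKM, and a shorter assembled one from 25376390 had 8.29 and 31.8 FPKM. The share did not pass (limma adjusted p = 0.981).

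The gene with the most listed transcripts, 12, lay on chromosome 8 (11334225 to 11341289, plus strand). It had 10.5, 13.0 and 10.2 FPKM in the controls and 29.8, 28.5 and 31.9 FPKM after drying, a ratio of 2.67. Its sum was steadier than its parts: the leading known transcript held 59.9%, 60.9% and 64.4% in the controls and 84.2%, 72.3% and 45.4% after drying.

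Among the doubled genes, 7 overlapped another listed gene on the other strand (10.9%, beside 11.3% of the eligible genes). No source used here says if strand entered the counting, so reads from either strand of such loci may have been mixed. A pair of doubled genes overlapped each other on chromosome 13, and no other doubled genes were neighbours. The plus-strand gene (10469858 to 10513159) had 14.4, 12.9 and 9.39 FPKM in the controls and 130.0, 127 and 140.1 FPKM after drying, a ratio of 10.8. The minus-strand gene (10471259 to 10514111) had 22.03, 23.7 and 24.5 FPKM against 112, 105 and 106 FPKM, a ratio of 4.61. The rule already keeps the groups of both genes apart.

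The known transcripts of this pair lie at opposite ends of the shared interval. The plus-strand known transcript (10469874 to 10471829) was listed with a mean of 6.313e-06 FPKM in the controls and 0.607 FPKM after drying, and the minus-strand one (10512191 to 10514111) with 3.70 and 12.4 FPKM. Most of the signal was assigned to assembled transcripts that cross the interval. On the plus strand the leading one had 6.13 and 86.2 FPKM, and on the minus strand 19.7 and 95.4 FPKM. The true boundaries of what was higher after drying are therefore not settled by these files.

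The long locus on chromosome 16 (2687355 to 2786595, plus strand) joined known transcripts at its far ends. It had 69.4, 60.01 and 46.7 FPKM in the controls and 207.5, 235 and 227 FPKM after drying, a ratio of 3.80. Its level came from the right-hand end, between 2785332 and 2786595, where a known transcript had means of 20.1 and 90.5 FPKM and an assembled one 38.2 and 130.0 FPKM. The known transcript at the left-hand end (2687355 to 2689039) had 0.323 and 1.73 FPKM. Of the 8 listed genes it overlapped, 5 were tested, and a minus-strand one at 2696836 to 2796459 was higher after drying, from 16.2 to 24.7 FPKM (log2 difference 0.569, limma adjusted p = 0.02024).

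The locus on chromosome 9 (117362 to 339415, plus strand) is the only doubled gene without a known transcript. It missed the limit in the main limma fit (adjusted p = 0.07328) but not in the limma fit with a replicate block (adjusted p = 0.03742). The rule used this contrast, so neither p-value is read as evidence about this locus. Its single assembled transcript had 35.0, 73.7 and 105 FPKM in the controls and 235, 214 and 1006 FPKM after drying. The libraries disagreed in both groups, and air-dried 3 was more than 4 times each of the other treated ones. Its lowest air-dried value was 2.03 times its highest control. It spanned 222054 bp and overlapped 20 other listed genes, none of which reached a mean of 1 FPKM. That lowest value was air-dried 2, so the locus met the rule with or without air-dried 3.

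A doubled gene on chromosome 3 (16488849 to 16490897, minus strand) lay inside a plus-strand listed gene that spans 16232723 to 16521829. It had 22.8, 22.7 and 23.0 FPKM in the controls, among the most even of all, and 55.3, 60.3 and 68.3 FPKM after drying. The surrounding gene had means of 939.8 and 1016 FPKM and did not pass the test (log2 difference 0.118, limma adjusted p = 0.6919). The other overlapped genes, beside the doubled genes on chromosomes 2 and 4, were below 1 FPKM.

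The doubled genes were found on 18 of the 19 numbered chromosomes, with 8 on chromosome 10 and none on chromosome 19, where 310 genes were eligible. The share of eligible genes ran up to 1.08% on chromosome 11, where 4 were found. The median gap from one to the next on a chromosome was 3349266 bp, and beside the overlapping pair 3 of 46 gaps were under 500000 bp. The smallest of these, 109855 bp, separated the chromosome 3 gene inside the long locus from the abundant one at 16600753. The gaps were not compared with those of as many other eligible genes, so nothing is read from the spacing.

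Of the genes listed directly beside a doubled gene, 71 were tested and were not doubled genes themselves, and these were not chosen by the rule. In limma 2 of them were higher after drying (2.82%, beside 5.60% of all genes tested) and 6 were lower (8.45%, beside 7.44%). Their median log2 difference was 0.0247, beside 0.00801 over all tested genes. The 2 higher ones lay on the same strand as the doubled gene. One, on chromosome 18 at 11768227 to 11768960, was 4772 bp away with a log2 difference of 1.36 (limma adjusted p = 0.03715). The other, on chromosome 12 at 1302671 to 1308528, was 13033 bp away with 0.361 (limma adjusted p = 0.01982).

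The 6 lower neighbours were also on the same strand, as were 38 of the 71 tested neighbours, while 11 were divergent and 18 convergent. The largest difference among them was that of a gene on chromosome 10 at 16255022 to 16258246, 4687 bp from a doubled gene that had 18.2, 15.9 and 16.7 FPKM in the controls and 55.5, 56.9 and 56.3 FPKM after drying. The neighbour's log2 difference was -1.28 (limma adjusted p = 0.002511), so the pair differed in opposite directions. The neighbour's level was low, with means of 2.27 FPKM in the controls and 0.343 FPKM after drying. Of the convergent neighbours 3 ended within 1000 bp of a doubled gene, on chromosomes 3, 9 and 17. They lay 151, 166 and 706 bp away and had log2 differences of -0.31, 0.409 and 0.0780, while the doubled genes beside them had 1.27, 1.45 and 1.17.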

How the data were processed

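Leaf RNA of 3 control and 3 air-dried samples was measured by poly(A) RNA sequencing with 100 bp paired reads, per the labels' protocols. The submitters' processing notes list FastQC, TopHat and Cufflinks without versions, and no source used here states a genome build or whether strand was used. The authors deposited FPKM values for 112919 transcripts, 45773 of them marked known, per the file headers. The rest were assembled from the reads. Values were used without rescaling and summed per gene (Python 3.11.15, pandas 2.3.3).

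Tests used limma 3.58.1 in R 4.3.3 (lmFit, eBayes with trend) on log2(FPKM + 1) of the 22356 genes that averaged 1 FPKM or more. Tests were two-sided, p-values were adjusted by Benjamini-Hochberg, and 0.05 was the limit. Transcript shares were limited to 1% to 99% before the log2 ratio. Library sets A and B were entered as a term. The procedures were tested on simulated data. There the treatment and library-set tests had to call most of the largest planted differences, with no such requirement for smaller ones. No calls of planted differences were required of the interaction test. The shares called are not given here, so the power to call small set or interaction differences is not stated. FPKM carry no depth, so no counting interval is given. Named genes were the 10 largest ratios, the 10 highest control means, 3 on each side of the threshold, the overlapping pair, the gene with the most transcripts, that without a known transcript, and the 3 highest and 3 lowest set differences. The genes and lists were chosen with earlier results of these data known, and the transcript-share and neighbour comparisons were added after the values were seen. The functional gene lists and the leaf markers could not be applied because no names were paired with the accessions. Replicate numbers were not treated as pairs.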

Additional observations from a re-analysis of the deposited data

How the results depend on the processing

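The number of doubled genes was 62 with libraries scaled to the same median (60 of the 64 remained) and 63 with scaling by median ratios (62 remained). Sums of known transcripts gave 52, of which 50 were among the 64, and the single highest transcript gave 58, of which 55 were. Other thresholds changed the number by construction: 105 at a control mean of at least 5 FPKM, 36 at 20 FPKM, 140 with a ratio of means of at least 2, and 18 with a lowest air-dried value 3 times the highest control. With a library left out it was 67 to 74. Leaving out a library can only loosen the condition on lowest and highest values, so nothing is read from these numbers. Without genes overlapping another listed gene, a choice made after seeing the data, 57 remained. The median log2 difference of 1.47 became 1.503 with a pseudocount of 0.1, 1.416 with known transcripts and 1.496 with set A or B as a term, and 1.464 to 1.505 with a library left out. Over all genes tested, limma calls fell to between 657 and 890 higher and between 824 and 1125 lower with a library left out, where fewer samples were fitted. The change exceeded 1.5 times for higher calls on leaving out a control (669 without control 1, 657 without control 2) or a treated library (800 without air-dried 1, 778 without air-dried 2, 755 without air-dried 3). For lower calls it did so for control 1 (961), control 2 (824), control 3 (1101), air-dried 1 (1102) and air-dried 2 (943). Libraries that share a number deviated from their group means with correlations of 0.187, -0.0961 and 0.292, so the numbers were not taken as pairs; a fit with the replicate block called 924 higher and 1197 lower, and the median log2 difference was 1.471. No doubled gene was called between the sets or for the interaction under any alternative run. The interaction was run with other pseudocounts and filters only, not with rescaled libraries or a library left out. In the main fits 0.989% and 0.188% of all genes tested were called, so hardly any call among 64 was to be counted on. Nothing is read from the absence of calls. The rule fixes the direction of the single genes under most alternatives, so its constancy is no sign of stability. Their lowest log2 difference was 0.0158, for the chromosome 4 gene with known transcripts alone, which leaves out its leading assembled transcript. Interaction calls over all genes were 42, and 733 with no filter, 28 with a pseudocount of 0.1 and 27 at a mean of at least 5 FPKM. Without an absolute depth, no precision can be given for low levels.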

Other observations

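Outside the doubled genes, 5 loci of under 300 bp met the conditions on level and ratio. The span minimum left them out, and they were picked out after their values were seen. The largest ratio was 24.4, at a 201 bp locus on chromosome 1 (22652903 to 22653103), with 47.4, 21.0 and 10.4 FPKM in the controls and 1131, 473 and 320.2 FPKM after drying. A 284 bp locus on chromosome 8 (2467863 to 2468146) had 48.8, 50.5 and 23.3 FPKM against 139, 151 and 115 FPKM.

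Of the 13 eligible genes with a mean at least 5 times higher after drying, 11 were doubled genes. The other two scattered: a 486 bp locus on chromosome 3 (16172458 to 16172943) had 0 FPKM in control 1, 314 and 386 FPKM in controls 2 and 3 and 672, 3812 and 574.6 FPKM after drying. A locus on chromosome 6 (810707 to 839171) had 0, 174 and 140.3 FPKM in the controls and 2204, 0 and 154 FPKM after drying. The air-dried means of both loci rest mainly on 1 library. A 101 bp locus on chromosome 11 (14416135 to 14416235), 72 bp from a doubled gene, was listed at 0 in every library but air-dried 1, where it had 45633 FPKM.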
